A study of Sus scrofa with 70 samples.

Results

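An alternative first exon event is a choice between a pair of first exons of 1 gene that are spliced to the same acceptor, so that the transcripts differ in where they start. They share the acceptor and need not share all later exons. Such events were taken from the deposited transcript annotation of the pig male reproductive tract: transcripts of 1 gene identifier and 1 strand with different first exons and a common first acceptor. The annotation held 15821 events of this type in 5674 genes. The 4628 events described here, in 2686 genes, were those whose transcripts summed to at least 1 TPM (a transcript abundance scaled for length and for library size) in all 30 RNA-seq libraries. They were 4628 of 38709 events of 7 splicing types that passed the same filter. At the edge of the filter, the lowest sum was 0.999 TPM for an event of ENPP1, just outside, and marginally over 1 TPM for an event of SLC4A7, just inside.

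Among the transcripts of an event, the share of abundance carrying the first exon farther upstream is called PSI (percent spliced in, on a scale from 0 to 1). Transcripts of the gene outside the event are not counted in it. A PSI of 1 means that only the upstream exon was counted and a PSI of 0 that only the downstream exon was. The libraries came from 12-month-old boars of the Banna mini-pig inbred line (BMI), which was bred from Diannan small-ear pigs by close mating, and of Diannan small-ear pigs (DSE). Testis and epididymis, and the accessory glands (bulbourethral, prostate and vesicular), were each sampled with 3 RNA-seq libraries and 1 PacBio Iso-seq library per breed. RNA came from 30 tissue samples, but no source used here says that the 3 libraries of a group came from separate boars, so p-values measure the spread between these libraries, which may be technical. Tissue samples hold many cell types, and fewer cells of a type cannot be told apart from less RNA per cell.

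A first exon is set by the promoter from which RNA polymerase starts, so a change of first exon can reflect a change of promoter within a gene. PSI is a share of transcript abundance and does not measure promoter use. In 1513 of the 4628 events the starts lay within 500 bases of each other. First exons often hold the start of the 5′ leader and sometimes the start codon. A switch can therefore alter translation, the N terminus of the protein, or neither. Testis is known for this kind of switch: meiotic and post-meiotic germ cells use their own promoters at many genes that are transcribed everywhere, with germ-cell forms of basal transcription factors such as the TBP-related TBPL1, the TFIIA subunit GTF2A1L and the TFIID subunit TAF7L.

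The sequences before the start sites of 3 genes are shown as examples. They belong to the 2 largest shifts towards the downstream exon (CARHSP1 and ITPRIP) and to PRKACA, a textbook case of a testis start. Starts had to lie over 2000 bases apart and windows had to be nearly free of annotated exons. These genes were chosen after their values were seen. Each line gives up to 250 bases before the start in the build Sscrofa11.1, 5′ to 3′ on the strand of the gene, with CpG dinucleotides in capitals. Each line says whether the start had a higher share of the event in testis or elsewhere, which is what favoured means throughout.
CARHSP1 upstream start, higher share elsewhere, chr3:33834158-33834407, plus strand: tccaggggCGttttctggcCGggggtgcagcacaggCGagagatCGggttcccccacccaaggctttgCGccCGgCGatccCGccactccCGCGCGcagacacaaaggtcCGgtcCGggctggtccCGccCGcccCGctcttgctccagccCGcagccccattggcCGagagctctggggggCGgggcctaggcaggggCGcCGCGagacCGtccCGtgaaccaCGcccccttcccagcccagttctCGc
CARHSP1 downstream start, higher share in testis, chr3:33840312-33840548, plus strand: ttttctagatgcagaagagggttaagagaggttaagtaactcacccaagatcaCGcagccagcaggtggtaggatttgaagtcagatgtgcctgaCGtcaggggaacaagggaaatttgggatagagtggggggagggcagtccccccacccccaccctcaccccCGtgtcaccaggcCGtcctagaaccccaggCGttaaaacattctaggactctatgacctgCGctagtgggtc
ITPRIP upstream start, higher share elsewhere, chr14:115277149-115277398, minus strand: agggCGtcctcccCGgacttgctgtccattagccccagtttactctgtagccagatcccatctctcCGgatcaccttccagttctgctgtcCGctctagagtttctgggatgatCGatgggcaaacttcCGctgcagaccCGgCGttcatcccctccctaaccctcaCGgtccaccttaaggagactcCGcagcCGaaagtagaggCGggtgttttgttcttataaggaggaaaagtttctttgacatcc
ITPRIP downstream start, higher share in testis, chr14:115271786-115272035, minus strand: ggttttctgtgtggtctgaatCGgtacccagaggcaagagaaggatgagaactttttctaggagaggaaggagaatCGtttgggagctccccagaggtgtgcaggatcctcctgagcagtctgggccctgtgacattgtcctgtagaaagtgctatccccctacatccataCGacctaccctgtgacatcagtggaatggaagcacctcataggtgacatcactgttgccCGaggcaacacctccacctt
PRKACA upstream start, higher share elsewhere, chr2:65074635-65074853, plus strand: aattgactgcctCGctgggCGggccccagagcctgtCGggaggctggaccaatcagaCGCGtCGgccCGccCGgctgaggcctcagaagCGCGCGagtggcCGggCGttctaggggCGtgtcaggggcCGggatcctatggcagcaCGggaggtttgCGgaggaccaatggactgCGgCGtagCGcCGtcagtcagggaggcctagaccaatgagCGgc
PRKACA downstream start, higher share in testis, chr2:65078341-65078590, plus strand: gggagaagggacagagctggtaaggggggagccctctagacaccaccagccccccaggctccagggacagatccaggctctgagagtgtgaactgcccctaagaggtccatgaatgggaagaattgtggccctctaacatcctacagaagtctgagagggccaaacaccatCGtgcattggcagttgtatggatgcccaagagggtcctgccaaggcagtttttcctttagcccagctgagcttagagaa
In these 3 genes the start favoured in testis lay in the sequence poorer in CpG. The ratio of observed to expected CpG in the 300 bases around the start was lower at the testis-favoured start in 10 of the 12 largest downstream shifts, with UAP1 and CLDN4 the other way, and in 7 of 11 of the largest upstream shifts. PRKACA had 22 CpG dinucleotides in the 219 bases shown before its upstream start and 1 in the 250 bases before its downstream start. ITPRIP had 12 against 4 in windows of the same length. The motif TGACGTCA, the full cAMP response element, searched on both strands since it reads the same on each, began 158 bases before the downstream start of CARHSP1 and occurred in none of the 5 other sequences. It was found in 1.98% of 6914 start windows of 300 bases (250 before and 50 after the start) over all first exons measured.

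One testis library stood apart from the other 5 and is treated first. In DSE testis replicate 2 the summed level of 12 spermatid and spermatocyte markers, all of them higher in testis than in the other glands, was 24794 TPM, against 73368 to 110731 TPM in the other 5 testis libraries. The 5 measured Leydig cell markers, which include steroidogenic enzymes, summed to 63514 TPM there and to 18595 to 32398 TPM in the other 5. The 6 Sertoli cell markers summed to 628 TPM there and to 209 to 378 TPM in the others. Smooth muscle markers (287 TPM against 136 to 191 TPM), leukocyte markers (18.5 against 6.07 to 10.8 TPM) and endothelial markers (57.0 against 26.5 to 47.4 TPM) were also highest there, and epididymal epithelium markers lowest (3.43 against 6.78 to 12.2 TPM). For each of the 1076 first exon events called below, the PSI of this library was placed between 2 means. These were the mean of the other glands (0) and that of the other testis libraries (1), and the median position was 0.515. The median position of each of the other 5 testis libraries was between 1.003 and 1.13. Their reference testis mean includes DSE testis replicate 2, which moves their positions up. The marker levels and the smaller first exon shift thus moved together in 1 library, and their part in it was not tested. The main counts are given with and without it.

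Testis used different first exons from the other glands in a large share of events. Of 4628 events, 1076 (23.2%) passed a limma adjusted p of 0.05 with a PSI difference of at least 0.1. They lay in 813 of 2686 genes, against 2670 of 7562 genes with a called event of any of the 7 types. The background over all 38709 events of 7 types was 12.2%, and that over the 6 types other than first exons was 10.7%. The upstream exon was higher in testis in 398 events (8.6%) and the downstream exon in 678 (14.6%). Without DSE testis replicate 2 the count was 1096, of which 399 favoured the upstream and 697 the downstream exon. Around the threshold of 0.1, an event of FKBP2 lay just inside with a difference of -0.1001 and one of DNAJC5 just outside with -0.0998.

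First exons headed the 7 types in this comparison. Alternative last exons followed with 16.6% of events called, mutually exclusive exons with 15.2%, skipped exons with 11.5%, alternative donors with 11.2%, retained introns with 9.37% and alternative acceptors with 8.81%. The median absolute PSI difference was 0.0338 for first exons and 0.0159 over all types. In 616 first exon events (13.3%) the 6 testis libraries lay entirely above or entirely below the 24 others, against 5.37% over all types. Without DSE testis replicate 2 that count was 843 (18.2%, against 7.9% over all types). The same count for each other gland against the remaining 24 libraries was 14 for the bulbourethral gland (0.303%, against 0.0723% over all types) and 13 for the epididymis (0.281% against 0.0904%). It was 3 for the vesicular gland (0.0648% against 0.0568%) and 1 for the prostate (0.0216% against 0.00258%).

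**Figure D1:**
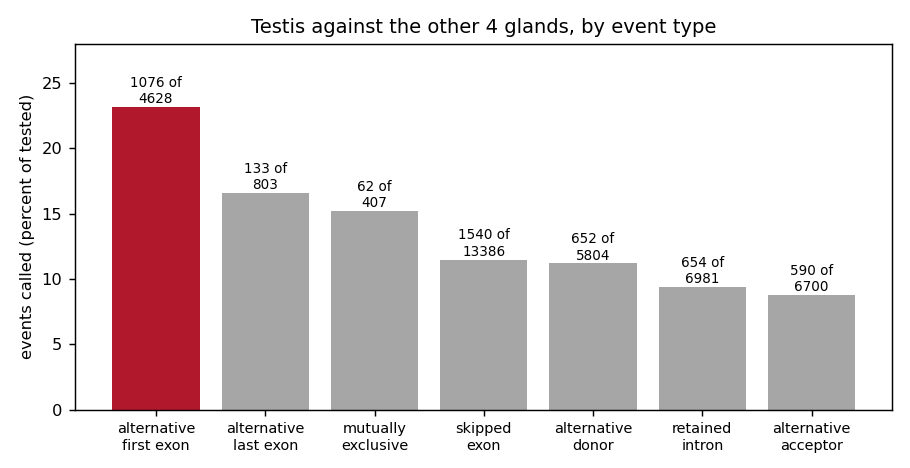
Bars give the percent of tested events of each splicing type that were called between testis and the other 4 glands (limma, adjusted p below 0.05 and PSI difference of at least 0.1). The number called and tested stands above each bar, and alternative first exons reach 23.2%, ahead of alternative last exons at 16.6%.

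Shifts towards the downstream exon mostly started from nearly single use. In these events the median mean PSI was 0.978 in the other glands, where 462 of 678 events lay over 0.9, and 0.633 in testis, where 83 lay under 0.1. High upstream use outside testis was not particular to them. Over all 4628 events, the median PSI of the 24 other libraries was 0.920 to 0.969. Where the upstream exon was favoured, the medians were 0.125 in the other glands and 0.602 in testis. Of these 398 events, 188 lay under 0.1 in the other glands and 79 over 0.9 in testis. A complete exchange was less frequent: the major first exon of the group means differed in 306 of the 1076 events, and it differed in every single library in 55. The difference reached 0.5 in 176 events (79 towards the upstream and 97 towards the downstream exon) and 0.8 in 30.

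Counted per library, 30.6% to 35.5% of events in the 6 testis libraries (median 34.5%) used each exon for at least 10% of the output, against 22.3% to 28.9% in the 24 other libraries (median 23.4%). The ranges did not overlap, and the lowest testis value was that of DSE testis replicate 2. Over all 7 event types the ranges overlapped, at 24.1% to 25.6% in testis and 23.5% to 27.6% elsewhere. Epididymis came next for first exons, with 23.5% to 28.9%.

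**Figure D2:**
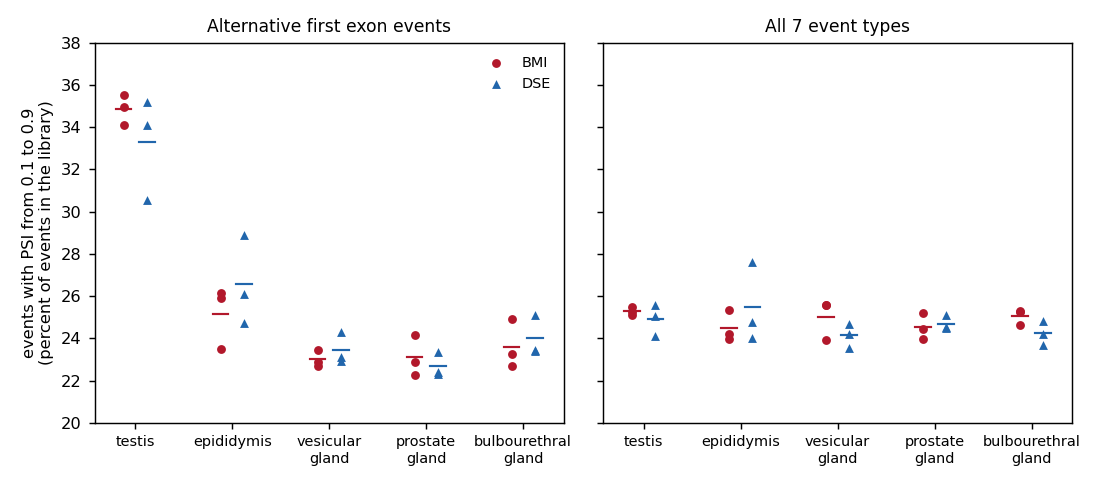
Each point is 1 RNA-seq library, the horizontal bars are means of 3 libraries, and the vertical axis (which starts at 20) gives the percent of events with PSI from 0.1 to 0.9. For first exon events on the left, testis lies at 30.6% to 35.5% and all other libraries at or below 28.9%. Over all 7 types on the right, testis lies within the range of the others.

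The largest shifts towards a downstream exon were nearly complete exchanges. CARHSP1 encodes a calcium-regulated cold-shock domain protein that binds RNA. Its PSI in the 6 testis libraries was 0.000800 at the lowest, 0.00257 at the median and 0.0396 at the highest. In the 24 other libraries it was 0.786, 1 and 1. The groups were far apart, and the only libraries outside testis below 1 were in the epididymis, where the median was 0.987. The difference was -0.977 ± 0.0184 (SE, limma adjusted p = 3.28e-20). The downstream exon (98 bases, chromosome 3, 33840562 to 33840659) carried a median of 176 TPM in testis and 0 TPM elsewhere, and the upstream exon (41 bases, 6154 bases away) 0.487 TPM and 18.4 TPM. The coding sequence began at the same position in both forms.

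ITPRIP, a partner of the inositol trisphosphate receptor, showed a shift of similar size. Its testis PSI was 0.00291, 0.0195 and 0.123 (lowest, median and highest), and that of the other libraries 0.760, 1 and 1, a difference of -0.951 ± 0.0226 (limma adjusted p = 2.35e-18). Both ITPRIP forms also shared their coding start. UAP1, the pyrophosphorylase that makes UDP-N-acetylglucosamine, had a testis PSI of 0 in the median and 0.288 at the highest. All other libraries were at or above 0.985, and the difference was -0.944 ± 0.0238 (limma adjusted p = 6.54e-18).

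CLDN4, an epithelial tight junction protein, and KLC3, a kinesin light chain known from sperm tails, followed with differences of -0.937 ± 0.0141 and -0.936 ± 0.0115. CLDN4 also had a whole-gene log2 fold change of -4.03 in testis, with only 6.59 TPM from its downstream exon in testis against 132 TPM from its upstream exon elsewhere. KLC3 as a whole did not differ detectably between testis and the other glands, with a log2 fold change of 0.01 ± 0.26 (SE, limma adjusted p = 0.987). Its first exons thus exchanged with no detectable change of the gene total. The downstream first exon of KLC3 is only 26 bases long and starts 421 bases from the upstream start.

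CXXC5, a zinc finger protein that binds unmethylated CpG, had a PSI of 0.0438 to 0.257 in testis and of at least 0.989 elsewhere. Its starts lie 25973 bases apart, and the ratio of observed to expected CpG in the 300 bases around them was 1.01 upstream and 0.209 downstream. The lipid droplet factor LDAF1, with a difference of -0.862, and RANGAP1, the GTPase activator of Ran in nuclear transport, with -0.828, were both higher in testis as whole genes. RANGAP1 was at a PSI of 0.112 to 0.234 in testis and 0.904 to 0.987 elsewhere. The remaining downstream shifts among the 12 largest were CD58 (-0.847), SH3D19 (-0.841), ANKMY2 (-0.825) and the zinc transporter SLC30A3 (-0.817). In ANKMY2 and CD58 the library that stood apart had a PSI of 0.662 and 0.475, against at most 0.0994 and 0.112 in the other 5.

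Shifts towards an upstream exon were similar in size. CYTH2, an exchange factor for ARF GTPases, had a testis PSI of 0.689, 1 and 1 (lowest, median and highest) and 0, 0.00109 and 0.1 elsewhere. The difference was 0.8996 ± 0.0248 (limma adjusted p = 2.73e-17). The downstream first exon of this event is 16 bases long and lies directly after the other, so few reads can tell the forms apart.

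SRPK2 is a kinase of the serine- and arginine-rich splicing factors. Its testis PSI was 0.619, 0.833 and 0.888, and in the other glands 0, 0 and 0.0462. The groups lay wide apart, with a difference of 0.799 ± 0.0208 (limma adjusted p = 1.10e-17). The starts are 117785 bases apart on chromosome 9. The upstream exon carried a median of 105 TPM in testis and 0 TPM elsewhere, and the downstream exon 20.3 TPM in testis and 9.89 TPM elsewhere.

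DCAF1, a substrate receptor of the CUL4 ubiquitin ligase, had a PSI of 0.754 to 0.960 in testis and 0 to 0.253 elsewhere, a difference of 0.799 ± 0.0298. Its downstream exon had medians of 5.58 TPM in testis and 5.68 TPM elsewhere, and its upstream exon 53.6 and 0.474 TPM. TUBA4A, an alpha-tubulin, had 79.5 TPM from its upstream exon in testis against 0.270 TPM, and a difference of 0.806 ± 0.0378. In both events most of the testis abundance came from the start that the other glands hardly used. These are shares of the event and not of the gene, and DCAF1 as a whole gene rose by 1.78 on the log2 scale.

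Other upstream shifts among the largest were the complex I assembly factor NDUFAF3 (0.874), the RNA-binding protein HNRNPA2B1 (0.854), the mitochondrial ribosomal protein MRPS35 (0.827), the zinc finger protein ZNF692 (0.824), the GTPase ARF4 (0.820), the transcriptional repressor BCL6 (0.817) and the mRNA export helicase DDX19B (0.791). The HNRNPA2B1 event sets an upstream exon (11.2 TPM in testis) against a first exon of 2951 bases (1.65 TPM in testis), and the gene as a whole did not differ detectably (log2 fold change 0.13 ± 0.15, limma adjusted p = 0.444). ARF4 was low in the library that stood apart. Its PSI was 0 in all other glands, at least 0.877 in 5 testis libraries and 0.0448 in DSE testis replicate 2.

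Gene totals did not follow a single direction. Of the 23 genes named above, 13 were higher in testis as whole genes, 1 was lower and 9 did not pass the test (limma, adjusted p 0.05 and log2 fold change of 1). Over all tested genes, 34.6% were higher and 12.7% lower in testis. With 1 event per gene, 345 of 806 genes with a called first exon were higher in testis and 71 lower, with a median log2 fold change of 0.74. Among 1880 genes without a called event, 473 were higher and 247 lower, with a median of 0.15.

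**Figure D3:**
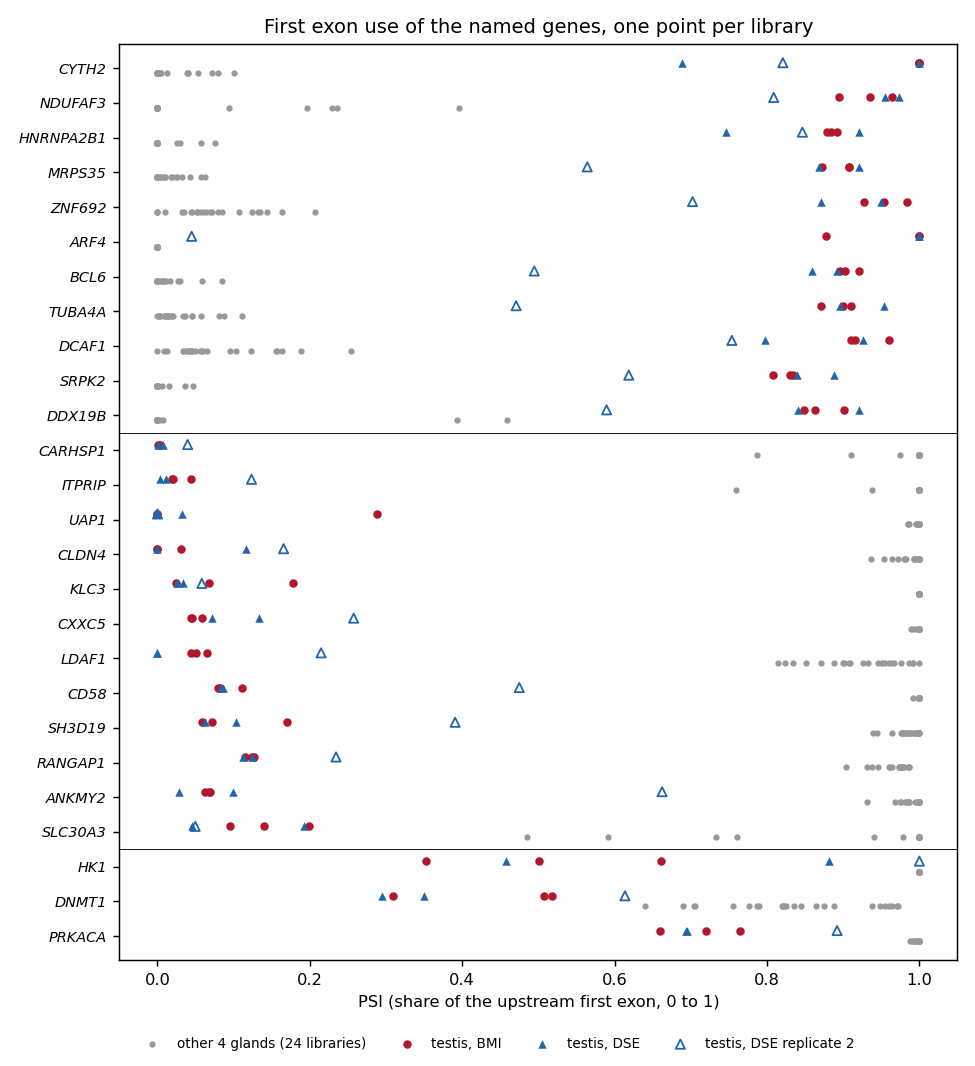
Each point is the PSI of 1 RNA-seq library. The upper block holds 11 of the largest shifts towards the upstream exon in testis, the middle block the 12 largest towards the downstream exon, and the lower block 3 genes known for a testis first exon. In the upper and middle blocks the testis points lie apart from the grey points of the other glands, and the open triangle, DSE testis replicate 2, lies between them in ANKMY2 (0.662), BCL6 (0.495) and TUBA4A (0.471).

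A list of 12 genes known for a testis or germ cell start was examined, and 3 of them had an event that passed the filter. All 3 were called with a higher downstream share in testis, as were 14.6% of all events. By RNA-seq the downstream exon held most of the testis output of the event at the median in DNMT1 alone. PRKACA encodes the catalytic subunit of protein kinase A, whose sperm form starts from its own first exon. Its testis PSI was 0.660, 0.707 and 0.892, and no other library was below 0.988, a difference of -0.260 ± 0.0179 (limma adjusted p = 1.70e-10). DNMT1, the maintenance DNA methyltransferase, had a testis PSI of 0.295, 0.429 and 0.614 against 0.640, 0.830 and 0.972 elsewhere (-0.407 ± 0.0472, limma adjusted p = 6.03e-07). The ranges of DNMT1 nearly touched. HK1, hexokinase 1, whose germ cell form lacks the mitochondrial binding end, was at 1 in all other libraries and at 0.352 to 1 in testis, where DSE testis replicate 2 had 1. The HK1 event covered 1.86 and 1.13 TPM of a testis gene total of 221 TPM at the median, so most HK1 transcripts lay outside it.

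Full-length Iso-seq reads gave a second readout of the same events, with 1 library per breed and gland and 231413 to 458697 reads each. The transcript models were built from these reads, so this readout is independent in its counts and not in its annotation. Among 1808 events with at least 5 reads in all 10 libraries, both testis libraries lay on 1 side of the 8 others in 518 (28.7%), above in 116 and below in 402. Events not called in RNA-seq leaned the same way, with 58 above and 226 below of 1447. Among the 258 of the 1808 called towards the downstream exon in RNA-seq, 174 had both testis libraries below the others and 0 above. Among the 103 called towards the upstream exon, 58 had both above and 2 below. The sign of the difference was the same in 89.2% of called events and in 59.0% of those not called. The Pearson correlation of the differences across the 1808 events was 0.742. Events of 1 gene share reads, so this is a description.

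**Figure D4:**
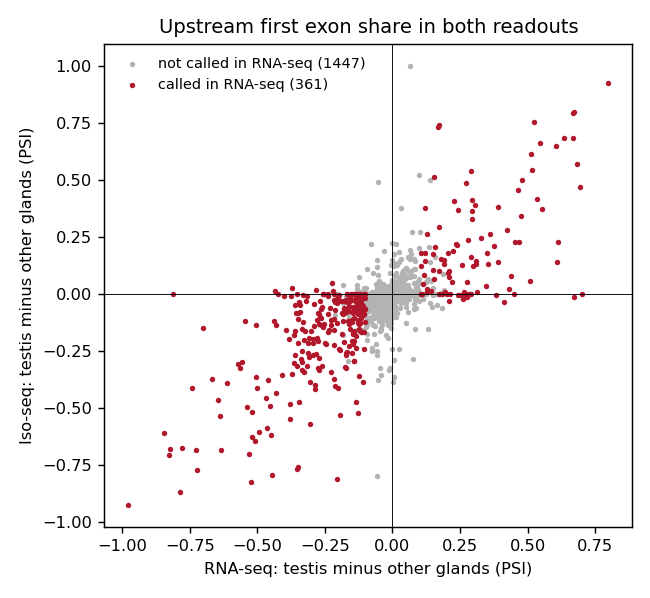
Each point is 1 of 1808 events with at least 5 full-length reads in each Iso-seq library. The horizontal axis is the RNA-seq difference in PSI (testis minus the other glands), the vertical axis that of Iso-seq, and red marks the 361 events called in RNA-seq. Most red points lie in the lower left and upper right, with CARHSP1 at the lower left end at an RNA-seq difference of -0.977.

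Of the 23 named events, 16 had at least 5 full-length reads both in testis and in the other glands together. The direction was that of RNA-seq in 15 of them, and the 95% Wilson intervals were apart in 13 (these cover counting error only). CARHSP1 had 7 upstream and 85 downstream reads in testis and 128 upstream and 0 downstream elsewhere. DCAF1 had 521 upstream and 39 downstream reads in testis, against 2 and 270. ANKMY2 had 28 and 73 against 374 and 0, and SH3D19 had 18 and 204 against 178 and 0. SRPK2 had 88 upstream and 0 downstream reads in testis and 0 of either elsewhere. These reads put most of the testis output of each event on the testis-favoured exon.

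The readouts also parted at some genes. CLDN4, ARF4 and BCL6 had 0 full-length reads of either form outside testis. RNA-seq gave the exon favoured there medians of 132, 53.5 and 9.42 TPM. CYTH2 had 0 downstream reads in testis or elsewhere, although RNA-seq gave that exon a median of 23.5 TPM outside testis. MRPS35 had 0 upstream reads of 9 in testis and ZNF692 had 0 of 1, although RNA-seq placed both at a PSI of at least 0.564. NDUFAF3 had 5 upstream reads of 11 and HNRNPA2B1 4 of 9 in testis, where their median PSI was 0.945 and 0.882. LDAF1 had 2 upstream reads of 10 outside testis, where its median PSI was 0.939, and ITPRIP 68 of 86 there, where its median PSI was 1. In testis CD58 had 24 of 63 reads upstream and RANGAP1 20 of 67, against a median PSI of 0.0851 and 0.124. In PRKACA the reads went further than RNA-seq, and only 7 of 108 testis reads started at the upstream exon, while 3 of 3 reads elsewhere started upstream. That is 6.48% upstream in testis by Iso-seq (95% Wilson interval 3.18% to 12.8%) against a median PSI of 0.707 by RNA-seq. In HK1, 24 of 26 testis reads started upstream, and in DNMT1 18 of 79 testis reads did against 50 of 59 elsewhere.

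The starts favoured in testis differed from their partners in several features that the selection did not use. With 1 event per called gene, the testis-favoured exon was in the Ensembl annotation in 26.9% of 806 genes and its partner in 62.5%. In genes not called the corresponding figures were 52.9% and 59.1%. The start codon lay within the first exon in 25.8% of testis-favoured exons and in 41.1% of partners. The median ratio of observed to expected CpG in the 300 bases around the start was 0.770 for testis-favoured and 0.835 for partner starts of 794 genes with sequence. It was lower at the testis-favoured start in 453 genes and higher in 341. In genes not called, at the start with the nominally higher testis share, it was lower in 866 and higher in 986.

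The motifs searched were rare at either kind of start. TATAAA, searched on the strand of the gene in the last 50 bases before the start, was present at 0.248% of testis-favoured starts and 0.744% of their partners, against 0.824% of all windows. TGACGTCA, in the windows of 300 bases, was present at 2.36% and 2.85%, against 1.98% of all windows. Starts of called events lay a median of 826.5 bases apart, against 927.5 for all events. The downstream exon predominated in close pairs, with 292 of 397 called events within 500 bases, and the directions were even beyond 10000 bases, with 108 of 217.

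Genes of many functions were among those called. The family lists used here were chosen with earlier results of these data known, so the shares are descriptions. Against 23.2% of all events, 30.5% of 174 events of ubiquitin pathway genes were called, 29.9% of 167 of kinases and phosphatases, 27.0% of 230 of chromatin and transcription genes, 21.6% of 111 of cytoskeletal and motor genes, 21.0% of 176 of RNA-binding and splicing genes, 25 of 125 events of transporters and channels, 18.6% of 129 of small GTPases and their regulators, and 10.5% of 105 of membrane trafficking genes.

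Within these lists the shifts went in both directions. In the ubiquitin pathway, 20 called events favoured the upstream and 33 the downstream exon in testis. CUL1, a cullin scaffold, rose by 0.614 ± 0.0439 in PSI and the E3 ligase TRIM13 by 0.593 ± 0.0186. Among kinases and phosphatases the counts were 17 and 33. The kinase DYRK1B had a difference of -0.695 ± 0.0257, the cyclin-dependent kinase CDK16 0.682 ± 0.0501 and the RNA phosphatase DUSP11 0.632 ± 0.0560. In chromatin and transcription genes they were 21 and 41, and NFYA, a subunit of the CCAAT-binding factor NF-Y, shifted by -0.723 ± 0.0423.

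Among RNA-binding genes, the helicase DDX3X was at a PSI of 0 in all 6 testis libraries and at 0.567 or more in the others (-0.705 ± 0.0462). Its downstream first exon is annotated with 3 bases, so few reads can tell the forms apart. ACTG2, a smooth muscle actin, was also called (-0.641 ± 0.137) with overlapping groups, and the 5 smooth muscle markers were lower in testis, at 136 to 287 TPM summed against 150 to 20837 TPM elsewhere. Their part in the ACTG2 result was not tested. In the small GTPase list, RAB13 shifted by 0.669 ± 0.0257 and AGAP1 by -0.667 ± 0.0309. In the trafficking list, the retromer subunit VPS26A shifted by -0.756 ± 0.0267 and the COPII coat protein SEC24D by 0.606 ± 0.0288. SLC44A2, a choline transporter, moved to nearly exclusive upstream use in testis, at 0.989 to 1 against a median of 0.527 elsewhere.

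Factors that place the transcription start were examined as whole genes. Of 29 measured genes of the 33 listed, which are TFIID, TFIIA, TFIIB, TFIIE and TFIIF subunits, germ cell regulators and the chromatin remodelling subunit ACTL6A, 17 rose, 0 fell and 12 did not pass the test, against 34.6% and 12.7% of all 19796 genes. Their median log2 fold change was 1.32, and that of all genes 0.31. The list holds 8 genes chosen as germ cell forms or regulators, all of which rose, and of the other 21 measured genes 9 rose (42.9%), ACTL6A among them. GTF2A1L, the germ cell TFIIA subunit, was at 33.4 to 145 TPM in testis and at most 0.559 TPM elsewhere. TAF7L was at 17.1 to 29.2 TPM against at most 0.739 TPM, and TBPL1 at 20.1 to 60.5 TPM against 2.17 to 13.4 TPM. TAF4 rose by 2.78 on the log2 scale, while TAF7, TAF8 and TAF9B had values of -0.40, -0.85 and -0.47 that did not reach the threshold of 1. The list summed to 905 TPM in DSE testis replicate 2 and to 1525 to 1784 TPM in the other testis libraries.

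Epididymis differed from the 3 accessory glands in 124 events (2.68%, against 1.94% over all 7 types), 60 towards the upstream (1.3%) and 64 towards the downstream exon (1.38%). WDR13, a WD repeat protein, had a PSI of 0.709 to 0.972 in epididymis and of at most 0.633 in the accessory glands (0.584 ± 0.0729, limma adjusted p = 5.12e-05). FKBP2, a peptidyl-prolyl isomerase of the endoplasmic reticulum, followed with 0.286 ± 0.0236. UBXN6, a cofactor of the p97 ATPase, went the other way, at 0.0700 to 0.306 in epididymis and 0.411 to 1 in the accessory glands (-0.645 ± 0.0625, limma adjusted p = 2.31e-06). ARHGEF10L, a guanine nucleotide exchange factor, shifted by -0.453 ± 0.0561. The testis libraries, which this comparison leaves out, lay within the accessory gland range for UBXN6 (0.820 to 0.985) and WDR13 (0.113 to 0.459). They lay above that range for FKBP2, at 0.820 to 0.899 beside 0.835 to 0.929 in epididymis, and overlapped both ranges for ARHGEF10L, at 0 to 0.286 beside 0 to 0.112 in epididymis. Without replicate 3 of every group the count was 36 and without replicate 2 it was 69, so its size depends on the libraries used.

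The breeds differed little over all glands. DSE against BMI over 5 glands gave 12 called events (0.259%, against 0.571% over all 7 types), and in 0 of 4628 events did the 15 DSE libraries lie apart from the 15 BMI libraries (0.0%, against 0.111% over all 7 types). At an unadjusted limma p below 0.05 there were 436 of 4628, against 3978 of 38709 over all 7 types.

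In testis alone, 121 events (2.61%, against 0.938% over all 7 types) were called between breeds, 74 (1.6%) with the upstream exon higher in DSE and 47 (1.02%) with the downstream exon higher. The 3 DSE and 3 BMI testis libraries lay apart in 492 events (10.6%, against 9.76% over all 7 types), and 92 of these (1.99% of all events) were called. In 86 of the 121 events the other glands were all above 0.9 or all below 0.1, and the fit shares 1 estimate of the spread over the 10 groups of breed and gland. Such values are common, since only 22.3% to 28.9% of all first exon events lay from 0.1 to 0.9 in any library outside testis. On a logit scale of PSI the count was 24, and in a limma fit of the 6 testis libraries alone it was 0, with 304 events at an unadjusted p below 0.05. Without DSE testis replicate 2 it was 138, with 64 upstream and 74 downstream, and without DSE testis replicate 1 it was 220.

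SUPT20H and NSUN6 were called on the PSI and on the logit scale. SUPT20H encodes a subunit of the SAGA coactivator complex. Its testis PSI was 0.284, 0.314 and 0.471 in BMI and 1 in all 3 DSE libraries, and no library of the other glands was below 0.866 (0.643 ± 0.0319, limma adjusted p = 9.67e-11). The Iso-seq reads were nearer to each other, with 15 of 23 upstream in BMI testis (Wilson interval 44.9% to 81.2%) and 10 of 12 in DSE testis (55.2% to 95.3%). NSUN6, an RNA cytosine methyltransferase, had 0.613, 0.671 and 0.738 in BMI testis and 0.109, 0.148 and 0.212 in DSE testis (-0.518 ± 0.0285, limma adjusted p = 2.11e-10). Only 6 and 5 full-length testis reads covered NSUN6, with 3 and 0 upstream.

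RNF6, a ubiquitin ligase, and NUMA1, a spindle protein, were called on the PSI scale (0.474 ± 0.0885 and -0.564 ± 0.143) and not on the logit scale, where their limma adjusted p was 0.184 and 0.265. The NUMA1 call was also lost without DSE testis replicate 2, with a difference of -0.507 and a limma adjusted p of 0.144. RNF6 had 10 of 15 full-length reads upstream in BMI testis and 4 of 5 in DSE testis. Its mean PSI by RNA-seq was 0.373 and 0.847 there. NUMA1 had 0 reads in the testis of either breed.

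The size of the testis shift was compared between breeds by the interaction term, which called 78 events (1.69%, against 0.493% over all 7 types) on the PSI scale and 11 on the logit scale. Without DSE testis replicate 1 the count on the PSI scale was 170, and without DSE testis replicate 3 it was 124. SUPT20H and NSUN6 were among them, with 0.622 ± 0.0357 and -0.525 ± 0.0318. HOOK2, a microtubule adaptor (0.480 ± 0.113), and HEXIM2, an inhibitor of the elongation kinase P-TEFb (-0.531 ± 0.128), were near the threshold, with limma adjusted p of 0.0395 and 0.0467. HEXIM2 had 0 of 4 full-length reads upstream in either breed's testis, and HOOK2 1 of 3 in BMI and 2 of 2 in DSE. Neither passed on the logit scale (limma adjusted p 0.630 for HOOK2 and 0.3505 for HEXIM2) or without DSE testis replicate 2 (0.107 and 0.173). Without that library the differences were 0.441 and -0.407.

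**Figure D5:**
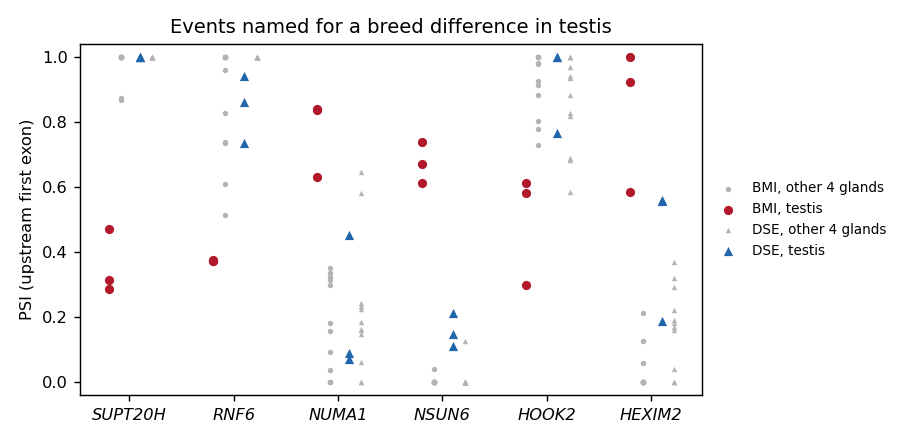
Each large point is the PSI of 1 testis library and each small grey point that of 1 library of the other 4 glands, for 6 events named for a breed difference in testis. BMI and DSE testis lie apart in SUPT20H (0.284 to 0.471 against 1) and NSUN6 (0.613 to 0.738 against 0.109 to 0.212).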

How the data were processed

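RNA-seq was quantified by the authors with Salmon 1.9.0 as TPM per transcript, and the TPM values were used as deposited. The transcript annotation combined Ensembl transcripts with isoforms assembled from PacBio Iso-seq, in the build susScr11 (Sscrofa11.1), and the deposited Iso-seq table gives the count of full-length reads per isoform and library. The labels state ribosomal RNA depletion for RNA-seq and the study's methods state poly-T purification. TPM keeps no depth, so the depth of single RNA-seq values is unknown. Small RNA files were not used here.

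Events were built after the definitions of SUPPA2, which was not run. First exons were identified by their donor, starts being pooled, and 14216 transcript pairs were left out in which the downstream form overlapped the upstream exon. GT followed 94.6% of 9122 donors and AG preceded 99.98% of 4561 acceptors in the reference genome, and 67 events lay on scaffolds without sequence. PSI, the upstream share of summed TPM, was fitted with limma 3.58.1 and 1 coefficient per breed and gland (10 groups of 3 libraries) over 38709 events of 7 types. P-values were Benjamini-Hochberg adjusted over all of them, and calls needed adjusted p below 0.05 and a PSI difference of at least 0.1. Gene totals were tested as log2(TPM + 1) for 19796 genes with 1 TPM in at least 3 libraries. Iso-seq shares carry 95% Wilson intervals, and reads reached an Ensembl transcript only through isoforms classed as its full splice match. The alternatives were another scale, pseudocount, filter and event definition, the replicate block and leaving out libraries. The fit was tested on simulated data.

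Named events were the 12 largest called shifts in each direction whose testis libraries all lay on 1 side of the others, on genes with a symbol and 1 per gene, with up to 2 per direction for the other comparisons, list genes with an event, and up to 4 examples per family. A gene among them and some start site sequences are not reported here. Of 2686 genes, 2491 had a symbol. Members and lists were chosen with earlier results of these data known.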

Additional observations from a re-analysis of the deposited data

Results flagged for a closer look

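In groups of 6, a library was marked where its gap to the nearest other one exceeded Dixon's 95% critical share of the range, which chance does in about 1 of 20 groups. Of 26 named events tested in the 6 testis libraries, 15 were marked, and in 13 of them the marked library was DSE testis replicate 2, the library with the lowest germ cell marker sum. Among upstream shifts its PSI was 0.564 for MRPS35, 0.0448 for ARF4, 0.495 for BCL6, 0.471 for TUBA4A, 0.619 for SRPK2 and 0.589 for DDX19B. The other 5 testis libraries were at 0.808 or higher for each. Among downstream shifts it was 0.0396 for CARHSP1, 0.123 for ITPRIP, 0.215 for LDAF1, 0.475 for CD58, 0.391 for SH3D19, 0.234 for RANGAP1 and 0.662 for ANKMY2, above the other 5 in each. The other marked values were 0.288 in BMI testis replicate 3 for UAP1 and 0.178 in BMI testis replicate 1 for KLC3.

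The 4 named events were marked because the testis difference itself differed between the breeds by the interaction term of the limma fit. The difference in DSE minus that in BMI was 0.622 for SUPT20H, 0.480 for HOOK2, -0.531 for HEXIM2 and -0.525 for NSUN6. On the logit scale the limma adjusted p was 0.000122 for SUPT20H and 0.00966 for NSUN6, and over 0.05 for the other two.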

How the results depend on the processing

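The testis count stayed between 982 and 1211 with 0.1 TPM added, on the logit scale, with first exons told apart by start and donor, under the replicate block and without any single library, against 1076 as reported. All 26 named events kept their direction and call under each of 36 alternatives, which did not include the changed filters or event definition. Of these events, 23 were picked as the largest shifts, so a call at a threshold of 0.1 was nearly fixed in advance. With summed TPM of at least 5, the counts for testis, epididymis, breed over glands, breed in testis and the breed difference of the testis shift were 402, 50, 3, 44 and 28 of 2060 events. With a summed TPM over 0 in all 30 libraries as the only filter they were 1913, 225, 34, 203 and 129 of 7649 events. The logit scale gave 24 calls for breed in testis and 11 for the breed difference of the shift, of which 21 and 10 were among those on the PSI scale. The 6 testis libraries fitted alone gave 0 for breed in testis with limma, with 304 at an unadjusted p below 0.05, an alternative chosen after seeing the data, as were leaving out joined gene identifiers and those outside Ensembl (1060 testis calls of 4587) and first exons under 30 bases (1022 of 4236). Leaving out replicates, the ranges were 903 to 1096 for testis, 36 to 146 for epididymis (36 without replicate 3, 69 without replicate 2), 8 to 18 for breed over glands, 91 to 220 for breed in testis and 66 to 170 for the breed difference of the shift, where 220 and 170 were without DSE testis replicate 1 and 124 of the latter without DSE testis replicate 3. The start site factors gave 16 or 17 higher. At 20 full-length reads, 160 of 564 Iso-seq events had testis on 1 side (28.4%). The causes were not tested.

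The replicate numbers did not pair the libraries: deviations from group means correlated at 2.67e-05 on average between same-numbered libraries of different groups and at 0.00317 between others, and 10 of 30 libraries correlated best with their own number. The replicate block gave 1077, 123, 13, 117 and 75 calls in the order above and 17 start site factors. The testis comparison rests on 6 libraries not stated to come from separate boars, and TPM shares of short or overlapping first exons depend on how Salmon divided reads between transcripts, which was not tested.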
